A study of Mus musculus with 15 samples.

Results

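The genes of 10 activator protein 1 (AP-1) and BATF factors, *Batf*, *Batf3*, *Jun*, *Junb*, *Jund*, *Fos*, *Fosb*, *Fosl2*, *Atf3*, and *Bach1*, were followed through ex vivo B cell differentiation with and without inhibition of EZH2. They were taken by symbol from the 21669 genes with a symbol in the RNA-seq table, and all 10 were found there. The B cells came from female C57BL/6J mice of 6 to 9 weeks. Naive B cells (nB) were CD43- splenic cells obtained by magnetic depletion. Cells sorted as B220+GL7+CD138- (activated B cells, actB) or as CD138+ (plasmablasts, Pb) were taken after 3 days of culture with the bacterial lipopolysaccharide LPS and the cytokines IL2 and IL5. The cultures contained 2 μM GSK343, an inhibitor of the histone methyltransferase EZH2, or its solvent DMSO, which gives 5 groups of 3 libraries. For Pb cultured with GSK343 the sample labels name Il6 in place of Il5, whereas the study's methods name IL2 and IL5 for the LPS cultures and no IL6. If these labels hold, the effect of the drug and that of the cytokine cannot be told apart in Pb.

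AP-1 factors bind DNA as pairs of basic leucine zipper proteins. JUN proteins pair with each other or with FOS proteins, whereas FOS proteins need a JUN partner. *Fos*, *Fosb*, *Jun*, *Junb*, and *Atf3* are immediate early genes, which cells transcribe briefly after a stimulus or stress without new protein synthesis. BATF and BATF3 lack a transactivation domain, pair with JUN proteins, and bind composite sites together with IRF4 or IRF8. BATF is required in B cells for class switch recombination, and BATF3 is known for its role in dendritic cells. BACH1 pairs with small MAF proteins, represses genes of heme and iron metabolism, and is the homolog of the B cell factor BACH2.

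Between 19421830 and 26307413 reads were counted per library, so that 3 reads, the number that a count of 0 allows, equal 0.114 to 0.154 RPM (reads per 1000000 reads). The columns of nB replicates 1 and 2 held the same library, with a chi-square per degree of freedom of 0.00947 against at least 3.57 for any other combination within a group, and were averaged, so that n is 2 for nB and 3 for each cultured group. Levels are RPKM, the read counts scaled to library size (RPM) and divided by the exon length in kilobases. Differences were tested with limma on log2(RPKM + 0.25) over 11299 genes, and a gene was called changed at a two-sided Benjamini-Hochberg adjusted p under 0.05. This scale understates changes of genes at low levels. The replicate numbers are those of the sample titles, which begin with m1, m2, or m3 in each of the 5 groups. The titles do not say what the letter stands for. The sources name biological replicates but do not otherwise tie libraries to animals, so the p-values measure the spread between these libraries. In every cultured group replicate 2 stood apart, with a chi-square per degree of freedom of 7.62 to 29.7 against the other replicates and of 3.57 to 6.07 between replicates 1 and 3. Calls that change without it are given beside the results.

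All 10 genes passed the filter of at least 1 RPKM in at least 3 of the 15 deposited columns. *Fosb* passed through its 3 nB columns alone, and *Fos* reached 1 RPKM in 3 nB and 6 Pb columns. *Fosl2* reached it in 7 columns, *Batf3* in 11, *Atf3* in 14, and the other 5 genes in all 15. The labelled stages were checked with marker genes. All 6 plasmablast markers were called higher in Pb than in actB, among them *Tnfrsf17*, the BCMA receptor, at 17.8 against 0.137 RPKM. In actB against nB, 3 of the 6 were called higher and 1 lower. The latter was *Sdc1*, at 0.665 against 5.17 RPKM. All 8 naive B cell markers were called lower in Pb than in actB. Of the 4 markers of activation, 2 were called higher and 1 lower in actB than in nB, the latter being *Bcl6*, which fell from 60.7 to 7.62 RPKM. The nB libraries also held RNA of cells other than B cells, as given beside the results below.

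Promoter sequence is shown for the genes in which an AP-1 or cAMP response type of site was found, because these genes encode AP-1 factors and are among the inducible members. The 250 bases before the start of each gene, from RefSeq, were searched on both strands for the TPA response element TGACTCA, the cAMP response element TGACGTCA, the variant TGACATCA, and the CArG box. *Jun* held TGACATCA, which 2.93% of all promoters contain, and none of the 10 genes held the TPA response element (4.46% of all promoters), TGACGTCA (1.55%), or the CArG box (1.47%) in this window. The core TGACGT, searched after the promoters had been seen and itself contained in TGACGTCA, was found in 3 of the 10 genes, *Batf*, *Fos*, and *Atf3*, and in 6.47% of all promoters. The starts are those of RefSeq, which equal those of the GENCODE genes given further on for *Jun* and *Fos* and differ for *Batf* and *Atf3*. In the lines that follow, each 60-base stretch runs 5′ to 3′ on the strand of the gene, and capitals mark the matched letters.
Jun: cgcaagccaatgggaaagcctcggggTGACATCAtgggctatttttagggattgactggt
Fos: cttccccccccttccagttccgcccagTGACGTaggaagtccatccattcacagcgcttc
Batf: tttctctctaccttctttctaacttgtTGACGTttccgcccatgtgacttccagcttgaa
Atf3: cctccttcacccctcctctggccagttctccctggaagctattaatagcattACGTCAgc
The *Jun* stretch is chr4:94718925-94718984 on the minus strand of mm9, and its match lies 45 to 38 bases before the start. The *Fos* stretch is chr12:86814747-86814806 on the plus strand, with its match 66 to 61 bases before the start. The *Batf* stretch is chr12:87027545-87027604 on the plus strand, with its match 98 to 93 bases before the start. The *Atf3* stretch is chr1:193007213-193007272 on the minus strand, and its match, 8 to 3 bases before the start, is TGACGT read on the other strand and lies mostly within the gene as GENCODE draws it. A match describes the letters in this window and is not evidence of binding.

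The summed level of the 10 genes was highest in nB, at 1038 ± 60.4 RPKM (SD, n = 2). It was 250.5 ± 19.0 RPKM (SD, n = 3) in actB and 181 ± 8.62 in Pb with DMSO, and with GSK343 it was 250.2 ± 19.9 in actB and 182 ± 14.9 in Pb. The shares of the FOS and BATF genes in this sum did not overlap between stages. FOS genes (*Fos*, *Fosb*, and *Fosl2*) made up 42.5 to 44.9% of it in nB, 0.376 to 0.656% in actB with DMSO, and 2.35 to 2.81% in Pb with DMSO. *Batf* and *Batf3* made up 1.502 to 1.65% in nB, 33.5 to 44.6% in actB, and 13.9 to 21.8% in Pb with DMSO. The JUN genes held 50.3 to 52.8% in nB, 45.2 to 52.6% in actB, which overlap, and 67.0 to 75.2% in Pb with DMSO. Relative to the sum of the 3 JUN genes, the level of *Batf* was 0.0251 ± 0.0023 (SD, n = 2) in nB, 0.838 ± 0.198 (SD, n = 3) in actB, and 0.262 ± 0.0740 in Pb with DMSO.

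**Figure D1:**
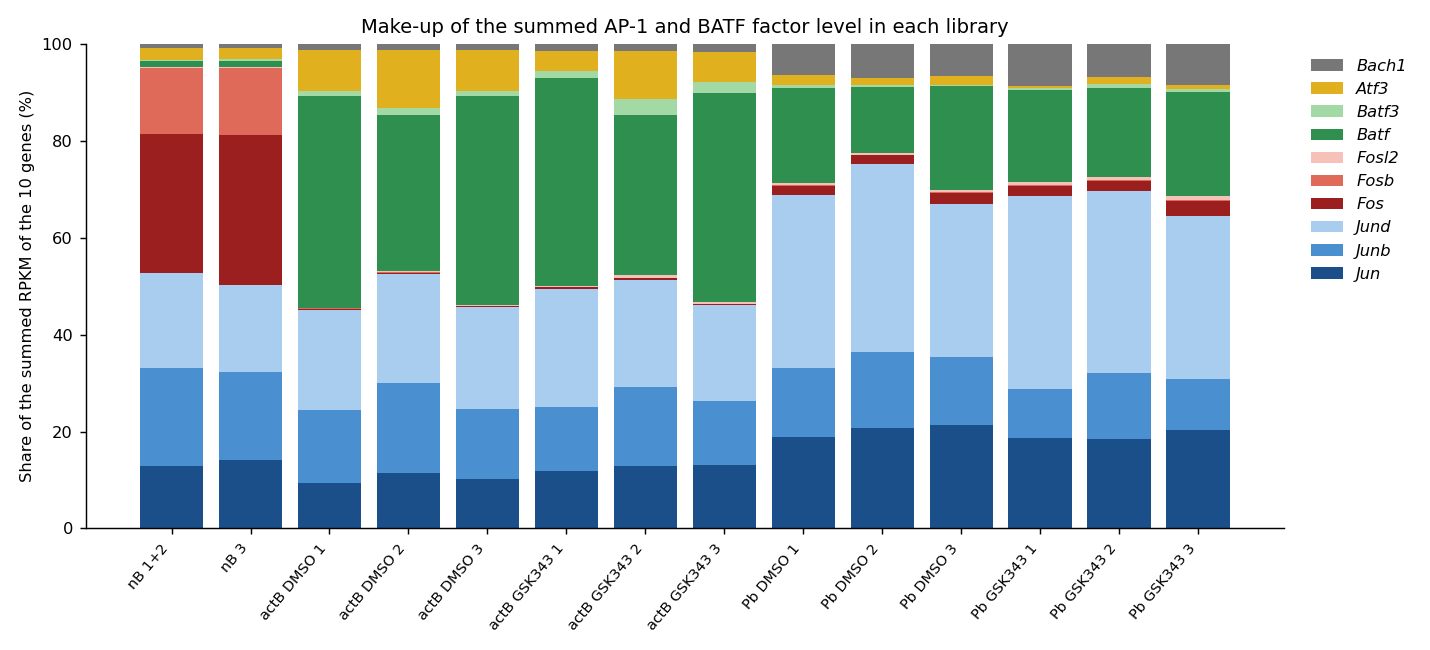
Each bar is a library, and its segments give the share of each gene in the summed RPKM of the 10 genes (vertical axis, %). Red FOS segments are wide in the nB libraries alone, the green *Batf* segment is widest in the 6 actB libraries, and the blue JUN segments take 64.6 to 75.2% in the 6 Pb libraries.

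The first comparison asks what changed between nB and actB. *Batf* alone was called higher in actB, that is 1 of the 10 genes, against 40.9% of all genes tested. Called lower were 7 of the 10, *Fos*, *Fosb*, *Fosl2*, *Jun*, *Junb*, *Jund*, and *Bach1*, against 36.3% of all genes. *Fosb* entered the test through its nB level alone and so had to differ from nB, both here and in Pb. *Batf3* and *Atf3* were not called. In Pb against actB, both with DMSO, *Fos*, *Fosb*, *Jun*, and *Bach1* were called higher, 4 of 10 against 27.3% of all genes, and *Batf*, *Batf3*, *Junb*, and *Atf3* were called lower, 4 of 10 against 42.4%. In Pb against nB, *Batf* and *Bach1* were called higher, 2 of 10 against 39.5% of all genes, and 7 of 10 were called lower against 41.1%. *Fosl2* was not called there. The comparisons share groups, so their calls are not independent of each other. Scaling each library to its median log2 ratio raised the median log2 difference of all genes between Pb and actB from -0.12 to -0.0048, and quantile normalization raised it to -0.03. Under both scalings the same number of members was called in each direction in all 3 comparisons.

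**Figure D2:**
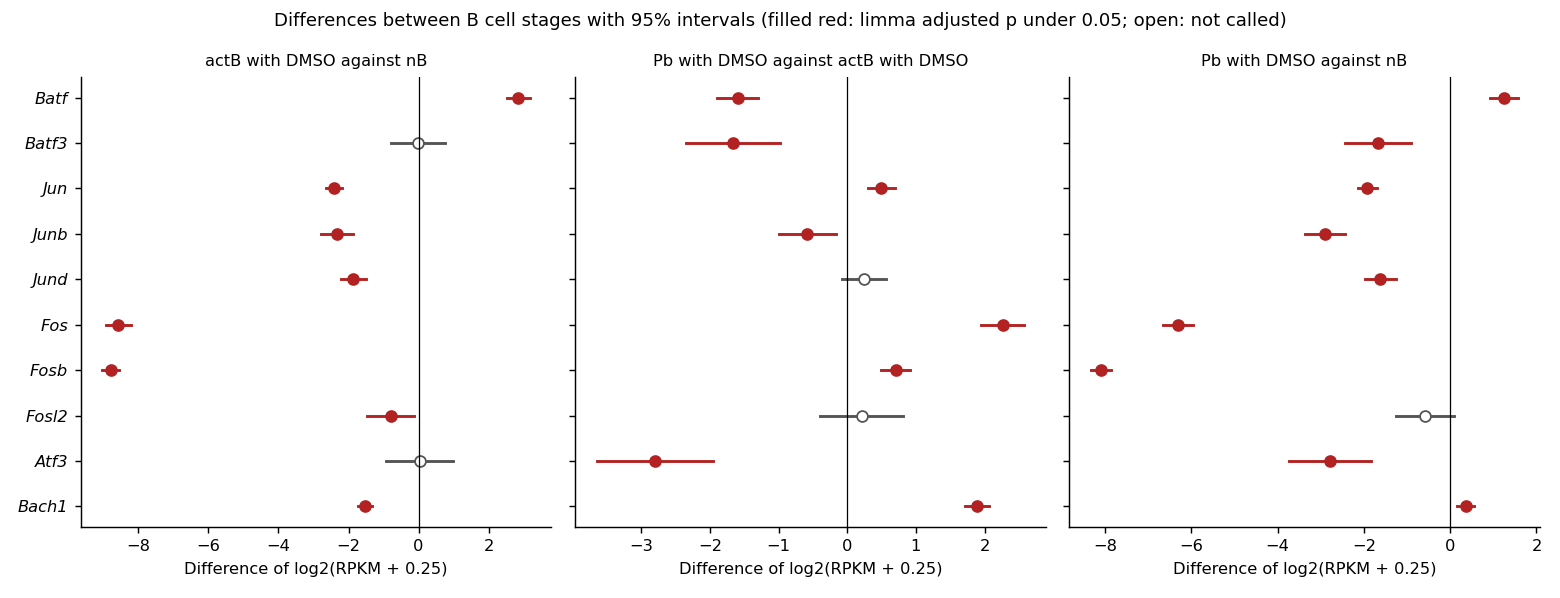
Differences in log2(RPKM + 0.25) between stages (points) with 95% intervals from limma (lines) for the 10 genes in 3 comparisons, each on its own horizontal scale, with called genes in filled red. *Fos* and *Fosb* lie beyond -8 in actB against nB, *Batf* is the only called rise there, and *Fos* and *Bach1* have the largest rises in Pb against actB.

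Among the FOS genes, *Fos* (Entrez 14281, mm9 chr12:86814840-86818223, plus strand) and *Fosb* (Entrez 14282, mm9 chr7:19888070-19895394, minus strand) were high in nB and low in actB. *Fos* was 309 RPKM in the merged nB library and 308 in nB replicate 3. In actB with DMSO it was 0.505, 0.674, and 0.512 RPKM, and in Pb with DMSO 3.69, 3.27, and 3.996 RPKM. The 3 stages did not overlap, with nB highest and actB lowest. The level was 548-fold higher in nB than in actB, a log2 difference of -8.57 for actB against nB (standard error 0.16, adjusted p = 7.33e-13). In Pb it was 6.48-fold higher than in actB (log2 difference 2.26 ± 0.14 (SE), adjusted p = 2.61e-08) and 84.5-fold lower than in nB (log2 difference -6.31, adjusted p = 2.28e-12). The *Fos* values rest on 25 to 34 reads per library in actB, 140 to 174 in Pb, and at least 14767 in nB.

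*Fosb* was 149 and 138 RPKM in the nB libraries, 0.0611 to 0.0802 RPKM in actB, and 0.244 to 0.319 RPKM in Pb with DMSO. The stages stood in the same order as for *Fos*, again with no overlap. The actB values rest on 6 to 8 reads per library. The mean was 1949-fold higher in nB than in actB and 515-fold higher than in Pb, given as a description since the nB level let *Fosb* into the test. It was 3.78-fold higher in Pb than in actB, where the log2 difference of 0.71 (adjusted p = 3.37e-05) ranged from 0.25 with a pseudocount of 1 to 2.01 in edgeR on the recovered reads, always in the same direction.

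*Fosl2*, also called FRA2 (Entrez 14284, mm9 chr5:32438845-32460204, plus strand), was low throughout. It was 1.38 and 0.946 RPKM in nB, 0.382, 1.008, and 0.404 in actB with DMSO, and 0.729, 0.770, and 0.562 in Pb with DMSO. Replicate 2 of actB lay within the range of nB, and the Pb libraries lay below nB. The decrease in actB against nB passed the threshold (log2 difference -0.80 ± 0.31 (SE), adjusted p = 0.0330), but the adjusted p was 0.222 without the merged nB library, which leaves 1 nB library, 0.110 and 0.104 without actB replicates 1 and 3, 0.0710 with the compared groups alone, and 0.0514 with no filter on low values. In Pb against nB the log2 difference was -0.58 (adjusted p = 0.101), and it was called with the replicate number as a block (adjusted p = 0.00587 or 0.0448, with the merged nB library given number 1 or 2), with the compared groups alone (adjusted p = 0.0227), with all columns as deposited (adjusted p = 0.0364), and without replicate 2 of every cultured group (adjusted p = 0.00646). In Pb against actB the log2 difference was 0.21 (95% interval -0.39 to 0.82, adjusted p = 0.514), and *Fosl2* was called higher in Pb without replicate 2 of every cultured group (log2 difference 0.47, adjusted p = 0.0362).

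The JUN genes were detected at all stages and were highest in nB. *Jun* (Entrez 16476, mm9 chr4:94715725-94718913, minus strand) was 138 and 140 RPKM in nB, 23.7, 30.8, and 23.7 in actB with DMSO, and 34.9, 38.6, and 36.5 in Pb with DMSO. Every Pb library was above every actB library, and both were below nB. *Jun* was 5.34-fold lower in actB than in nB (log2 difference -2.42 ± 0.10 (SE), adjusted p = 4.59e-10). It was 1.41-fold higher in Pb than in actB (log2 difference 0.50 ± 0.093 (SE), adjusted p = 0.000412) and 3.80-fold lower in Pb than in nB (adjusted p = 2.23e-09).

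*Junb* (Entrez 16477, mm9 chr8:87500811-87502617, minus strand) was 219 and 180 RPKM in nB, 37.7, 49.7, and 33.4 in actB with DMSO, and 26.6, 29.1, and 24.0 in Pb with DMSO. It went the opposite way to *Jun* between actB and Pb, again without overlap of the libraries. It was 4.96-fold lower in actB than in nB (log2 difference -2.32 ± 0.21 (SE), adjusted p = 5.32e-07) and 7.52-fold lower in Pb than in nB (adjusted p = 4.01e-08). The decrease from actB to Pb was 1.52-fold (log2 difference -0.58 ± 0.19 (SE), adjusted p = 0.0154), and the adjusted p was 0.0674 without actB replicate 2 and 0.0559 without Pb replicate 3. The length deposited for *Junb* is 3225 bases, against 1807 bases of exon in GENCODE vM1, so its RPKM is lower than it would be with the GENCODE length, while comparisons of *Junb* between groups do not depend on length beyond the pseudocount.

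*Jund* (Entrez 16478, mm9 chr8:73221638-73224515, plus strand) was 213 and 180 RPKM in nB, 52.4, 60.7, and 48.6 in actB with DMSO, and 66.0, 71.9, and 53.8 in Pb with DMSO. The actB and Pb libraries overlapped, and both lay below nB. It was 3.65-fold lower in actB (adjusted p = 4.20e-07) and 3.08-fold lower in Pb than in nB (adjusted p = 1.12e-06). Between Pb and actB the log2 difference was 0.24 (95% interval -0.08 to 0.56, adjusted p = 0.166), with Pb above actB in 3 of 3 same-numbered libraries. With the replicate number as a block it was called higher in Pb (adjusted p = 0.00160 or 0.00331), as it was in edgeR with RLE factors (log2 difference 0.36, adjusted p = 0.0439). Genes on the opposite strand share 232 bases of exon with *Jun* and 543 with *Jund*, and since no source says whether strand entered the counting, their reads cannot be told apart from those of *Jun* and *Jund*. Within the JUN sum, *Jund* held 36.0 to 37.3% in nB, 43.0 to 46.0% in actB, and 47.1 to 51.8% in Pb with DMSO, while *Junb* held 36.0 to 38.4%, 31.6 to 35.2%, and 20.8 to 21.0%. All shares rest on the deposited lengths, and with the GENCODE length that of *Junb* would be higher in each group.

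**Figure D3:**
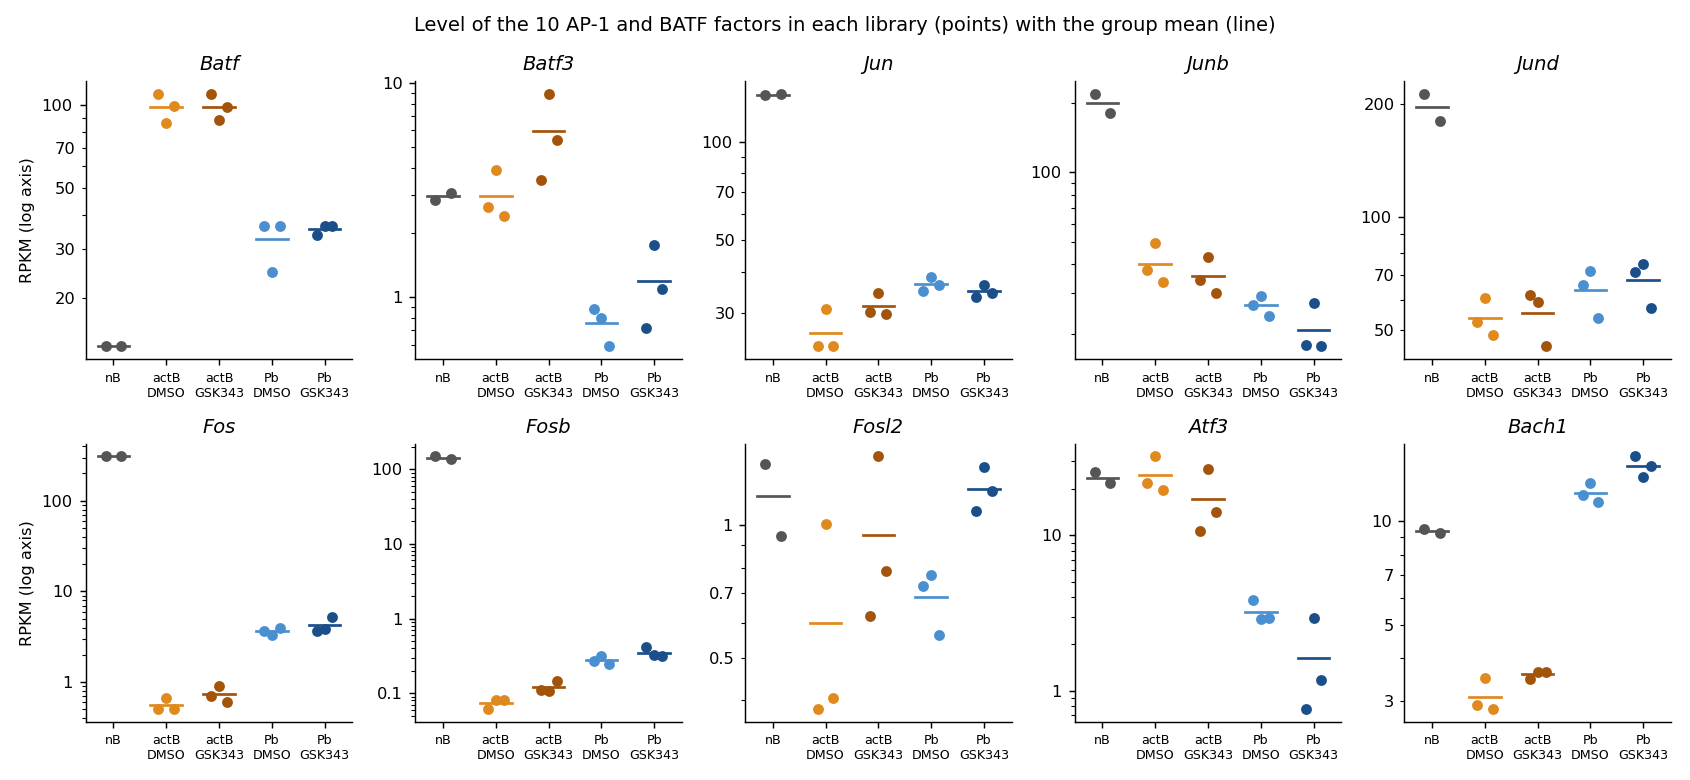
RPKM of each of the 10 genes (1 panel each, log axis with its own range) in every library (points) of the 5 groups, with the group mean as a line. *Batf* runs from 13.4 RPKM in nB to 98.4 in actB and 32.7 in Pb with DMSO, and *Bach1* takes the opposite course with 9.36, 3.09, and 12.1 RPKM.

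*Batf* (Entrez 53314, mm9 chr12:87027619-87050037, plus strand) was the member with the largest increase. It was 13.4 RPKM in each nB library, 109.9, 86.1, and 99.3 RPKM in actB with DMSO, and 36.5, 24.9, and 36.6 RPKM in Pb with DMSO. No library of a stage overlapped another stage. *Batf* was 7.35-fold higher in actB than in nB (log2 difference 2.85 ± 0.15 (SE), adjusted p = 3.44e-09). It was 3.01-fold lower in Pb than in actB (log2 difference -1.60 ± 0.14 (SE), adjusted p = 4.15e-07) and remained 2.44-fold higher in Pb than in nB (adjusted p = 6.40e-06). Of its partners, *Irf8* was 84.1 RPKM in nB, 111.4 in actB, and 32.1 in Pb, and *Irf4*, whose product drives plasma cell differentiation at high levels, was 120 RPKM in nB, 109 in actB, and 372 in Pb. *Irf8* was called higher in actB than in nB and lower in Pb than in either, and *Irf4* was called higher in Pb than in either.

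*Batf3* (Entrez 381319, mm9 chr1:192922293-192932822, plus strand) was 2.84 and 3.07 RPKM in nB, 2.63, 3.90, and 2.39 in actB with DMSO, and 0.884, 0.800, and 0.590 in Pb with DMSO. The nB and actB libraries overlapped, whereas all Pb libraries lay below both. Its difference between actB and nB was -0.02 on the log2 scale (95% interval -0.78 to 0.74, adjusted p = 0.960). It was 3.92-fold lower in Pb than in actB (log2 difference -1.66 ± 0.31 (SE), adjusted p = 0.000441) and 3.90-fold lower in Pb than in nB (adjusted p = 0.000689). *Batf3* rests on 15 to 21 reads per library in Pb with DMSO and 71 to 115 in actB, and its deposited length of 1222 bases exceeds the 712 bases of exon in GENCODE vM1. *Batf3* is known to act in dendritic cells. Of 5 markers of these cells, 4 were called lower and 1 higher in actB than in nB. Only 1 of the 5 had a mean of at least 1 RPKM in actB with DMSO. Markers that entered the test through nB alone had to be lower in actB. *Clec9a* was 9.24 RPKM and *Xcr1* 2.92 in nB, against 0.0111 and 0.205 in actB and 0.0262 and 0.210 in Pb with DMSO. *Flt3* was the marker called higher, at 12.2 RPKM in nB and 47.2 in actB, and it was 7.63 in Pb with DMSO. The part of dendritic cells in the nB level of *Batf3* was not tested.

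*Atf3*, a stress-induced factor that pairs with JUN proteins (Entrez 11910, mm9 chr1:192994175-193007219, minus strand), was 25.4 and 21.7 RPKM in nB and 21.7, 32.2, and 19.7 RPKM in actB with DMSO. In Pb with DMSO it was 3.85, 2.91, and 2.97 RPKM. Thus nB and actB overlapped, and Pb lay apart from both. The log2 difference between actB and nB was 0.03 (95% interval -0.92 to 0.98, adjusted p = 0.953). *Atf3* was 7.57-fold lower in Pb than in actB (log2 difference -2.80 ± 0.39 (SE), adjusted p = 3.43e-05) and 7.27-fold lower in Pb than in nB (adjusted p = 6.44e-05).

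*Bach1* (Entrez 12013, mm9 chr16:87699190-87733591, plus strand) was 9.49 and 9.23 RPKM in nB, 2.93, 3.505, and 2.84 in actB with DMSO, and 11.9, 12.95, and 11.4 in Pb with DMSO. The 3 stages did not overlap. It was 3.03-fold lower in actB than in nB (log2 difference -1.53 ± 0.091 (SE), adjusted p = 9.37e-09). It was 3.91-fold higher in Pb than in actB (log2 difference 1.89 ± 0.081 (SE), adjusted p = 8.92e-10) and 1.29-fold higher in Pb than in nB (adjusted p = 0.00268). Its homolog *Bach2*, which restrains plasma cell differentiation, went the other way between actB and Pb, from 26.6 to 4.38 RPKM (adjusted p = 4.71e-09). Of 8 tested genes known as BACH1 targets, 2 were called higher and 2 lower in Pb than in actB, with a median log2 difference of 0.07 against -0.12 for all genes. The light ferritin chain gene *Ftl1* rose from 390 to 1111 RPKM (adjusted p = 4.30e-08) and the biliverdin reductase gene *Blvrb* fell from 27.0 to 9.80 RPKM (adjusted p = 8.89e-07). In actB against nB, 3 of the 8 were called higher and 3 lower, with the heme oxygenase gene *Hmox1* lower at 5.55 against 30.7 RPKM and the thioredoxin reductase gene *Txnrd1* higher at 48.6 against 16.1.

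The high nB levels of *Fos*, *Fosb*, *Jun*, and *Junb* stood beside those of other immediate early genes. *Atf3*, the other member named above as an immediate early gene, was not lower in actB, at 24.5 against 23.6 RPKM in nB. Of 14 such genes in a list that holds no member, 13 were called lower and 1 higher in actB than in nB, and their median log2 difference was -3.12 against 0.05 for all genes. The largest fall was that of the Krüppel-like factor gene *Klf4*, from 40.1 to 0.237 RPKM (adjusted p = 1.40e-12), and the rise was that of *Ier3*, from 2.32 to 5.46 RPKM (adjusted p = 0.00247). In Pb against nB 13 of the 14 were called lower, with the orphan nuclear receptor gene *Nr4a1* at 1.36 against 223 RPKM. In Pb against actB 8 of the 14 were called higher and 5 lower, with a median of 0.38 against -0.12 for all genes. The phosphatase gene *Dusp1* rose from 3.95 to 18.5 RPKM and *Klf2* fell from 33.2 to 3.33 RPKM. Naive cells were taken from the spleen by magnetic depletion and the cultured cells were stained and sorted by flow cytometry, so the stage and the way of isolation cannot be told apart. Of 5 heat shock genes 3 were tested, of which *Hspa8* and *Hsph1* were higher and *Dnajb1* lower in actB than in nB. The stress-inducible *Hspa1a* and *Hspa1b*, which were not tested, were at 1.71 and 1.84 RPKM in nB and at a mean of 0.506 or less in every cultured group.

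Markers of other cell types moved with the comparison of nB and the cultured cells. Called lower in actB than in nB were 5 of 5 T cell markers, 6 of 7 myeloid markers, 4 of 5 dendritic cell markers, 3 of 3 NK cell markers, and 2 of 2 tested erythroid markers. The share of all genes called lower was 36.3%. No T cell or NK cell marker had a mean of 1 RPKM in a cultured group, and 1 myeloid, 1 dendritic cell, and 1 erythroid marker did in actB with DMSO. Markers that entered the test through nB alone had to be lower outside it, so these counts are a description. *Flt3*, listed for dendritic cells, was higher in actB. Summed over each list, T cell markers were at 19.4 to 20.8 RPKM in the nB libraries and 0.0973 to 0.313 in the 6 cultured libraries with DMSO. Myeloid markers were at 194 to 239 RPKM in nB, with *Lyz2* at 166, and at 0.465 to 5.44 in the DMSO cultures, where *S100a8* and *S100a9* had no reads. NK cell markers were at 6.92 to 7.20 RPKM in nB and 0.276 to 0.858 in the DMSO cultures, and dendritic cell markers at 29.8 to 35.9 in nB, 38.8 to 65.3 in actB, and 7.63 to 8.39 in Pb. Erythroid markers were at 30.6 to 138.0 RPKM in nB and 1.29 to 12.9 in the DMSO cultures. In bulk RNA, fewer cells of a type and less RNA per cell cannot be told apart, and the part of these cells in the nB levels of the AP-1 genes was not tested. In the merged nB library and nB replicate 3, *Fos* was 309 and 308 RPKM and *Jun* 138 and 140. *Fosb* was 149 and 138 RPKM in them, *Junb* 219 and 180, and *Jund* 213 and 180.

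The next comparisons ask whether inhibition of EZH2 changed these genes. In actB, none of the 10 genes was called changed by GSK343 in limma, against 10.4% of all genes tested. None was called in edgeR, and 3 of the 10 had an unadjusted p under 0.05, against 25% of all genes. In Pb, none was called in limma or edgeR, against 12.9% of all genes, and 3 of the 10 had an unadjusted p under 0.05, against 26.9%. Both shares are near those of all genes. Same-numbered libraries share the m1, m2, or m3 of their titles and may be paired. With the replicate number as a block 2 of the 10 were called in actB and 4 in Pb. The calls over all genes then rose from 1170 to 2417 (21.4%) or 1934 (17.1%) for actB, with the merged nB library given number 1 or 2. For Pb they rose from 1458 to 2780 (24.6%) or 2319 (20.5%). The GSK343 libraries lay wholly beyond the DMSO libraries for 1 of the 10 genes in actB (*Fosb*), against 25.9% of all genes, and for 2 in Pb (*Fosl2* and *Bach1*), against 34.1%. Without replicate 2 of every cultured group, the calls were 3 of the 10 genes in actB, against 15.4% of all genes, and 4 in Pb, against 17.5%.

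**Figure D4:**
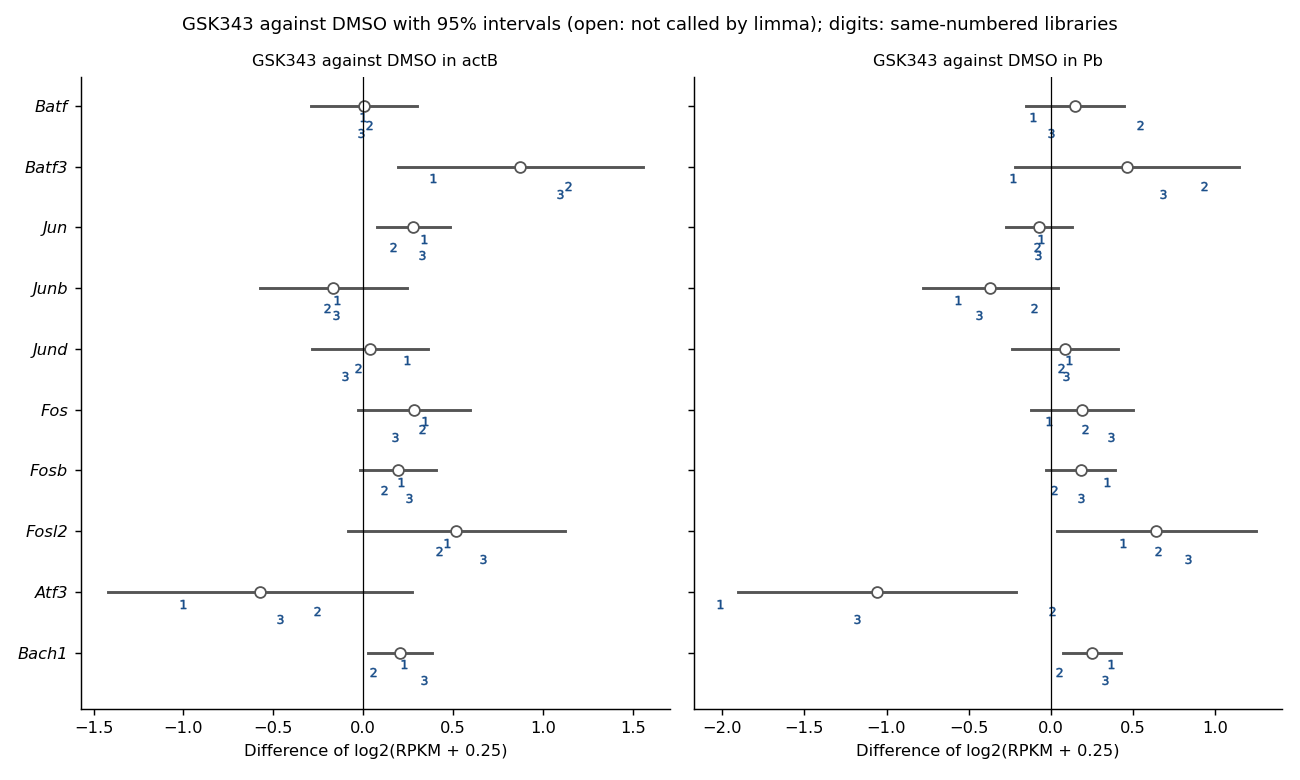
Differences in log2(RPKM + 0.25) between GSK343 and DMSO (open points, not called) with 95% intervals from limma (lines) for the 10 genes in actB (left) and Pb (right), and below each line the difference between libraries with the same replicate number (digits). All 3 digits of *Batf3*, *Jun*, *Fos*, *Fosb*, *Fosl2*, and *Bach1* lie to the right of 0 in actB, and all 3 of *Junb* and *Atf3* to the left. For *Atf3* in Pb digits 1 and 3 lie below -1 while digit 2 lies at 0.

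*Batf3* had the largest difference in actB. It was 2.63, 3.90, and 2.39 RPKM in replicates 1, 2, and 3 with DMSO and 3.51, 8.89, and 5.39 RPKM with GSK343. It was higher with GSK343 in 3 of 3 same-numbered libraries, although the lowest GSK343 library lay within the DMSO range. The means differed 1.995-fold (log2 difference 0.87, 95% interval 0.19 to 1.56, adjusted p = 0.1002), and the call was made with the replicate block (adjusted p = 0.0131 or 0.0284) and without GSK343 replicate 1 (adjusted p = 0.0413). In Pb *Batf3* was 0.717, 1.76, and 1.10 RPKM with GSK343, higher in 2 of 3 same-numbered libraries (log2 difference 0.46, 95% interval -0.22 to 1.14, adjusted p = 0.391).

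*Batf* itself was 109.7, 88.0, and 98.4 RPKM in actB with GSK343, within the spread of the DMSO libraries. The log2 difference was 0.01 with a 95% interval of -0.29 to 0.30 (adjusted p = 0.994). In Pb with GSK343 it was 33.9, 36.5, and 36.6 RPKM (log2 difference 0.15, 95% interval -0.15 to 0.44, adjusted p = 0.550). Of the IRF partners, *Irf4* was called lower with GSK343 in Pb, at 313 against 372 RPKM (log2 difference -0.25, adjusted p = 0.0225), and neither was called in actB.

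*Jun* was 30.1, 34.6, and 29.8 RPKM in actB with GSK343, higher than with DMSO in 3 of 3 same-numbered libraries. The log2 difference was 0.28 (95% interval 0.07 to 0.48, adjusted p = 0.0810), and it was called with the replicate block (adjusted p = 0.00471 or 0.0142), without replicate 2 of every cultured group (adjusted p = 0.00193), and without actB replicate 2 with DMSO (adjusted p = 0.00421). In Pb *Jun* was 33.5, 36.5, and 34.6 RPKM with GSK343, lower in 3 of 3 same-numbered libraries (log2 difference -0.07, 95% interval -0.27 to 0.13, adjusted p = 0.690). *Junb* was 17.9, 27.1, and 17.7 RPKM in Pb with GSK343 and lower than with DMSO in 3 of 3 same-numbered libraries, although replicate 2 lay within the DMSO range. Its log2 difference was -0.37 (95% interval -0.78 to 0.04, adjusted p = 0.242), called lower with the block (adjusted p = 0.00438 or 0.00831) and without replicate 2 of every cultured group (adjusted p = 0.0103). In actB *Junb* was 34.1, 43.2, and 30.1 RPKM with GSK343 (log2 difference -0.17, 95% interval -0.58 to 0.24, adjusted p = 0.665). *Jund* differed by 0.04 in actB (95% interval -0.28 to 0.36) and by 0.09 in Pb (95% interval -0.24 to 0.41) on the log2 scale.

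Among the FOS genes, *Fosl2* was 1.08, 1.35, and 1.20 RPKM in Pb with GSK343, all above the DMSO libraries. The means differed 1.76-fold (log2 difference 0.64, 95% interval 0.04 to 1.25, adjusted p = 0.161), called with the block (adjusted p = 0.0294 or 0.0268), with the compared groups alone (adjusted p = 0.0257), and without replicate 2 of every cultured group (adjusted p = 0.0361). In actB it was 0.622, 1.43, and 0.788 RPKM with GSK343, higher in 3 of 3 same-numbered libraries (log2 difference 0.52, 95% interval -0.09 to 1.12, adjusted p = 0.280), and called without actB replicate 2 with DMSO (adjusted p = 0.0426). *Fos* was 0.708, 0.911, and 0.610 RPKM in actB with GSK343 and 3.66, 3.82, and 5.22 in Pb. Its log2 differences were 0.28 in actB (95% interval -0.03 to 0.59, adjusted p = 0.247) and 0.19 in Pb (95% interval -0.12 to 0.50, adjusted p = 0.454). *Fosb* was 0.108 to 0.144 RPKM in actB with GSK343, from 11 to 14 reads per library, and its log2 difference was 0.19 (adjusted p = 0.244). In Pb it was 0.311 to 0.413 RPKM with GSK343 (log2 difference 0.18, adjusted p = 0.268).

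*Atf3* was 0.767, 2.93, and 1.17 RPKM in Pb with GSK343, from 40, 134, and 52 reads. Replicates 1 and 3 lay below all DMSO libraries and replicate 2 lay among them. The means differed 1.997-fold (log2 difference -1.06, 95% interval -1.91 to -0.21, adjusted p = 0.0986). The difference was called with the block (adjusted p = 0.0179 or 0.0262), without GSK343 replicate 2 (log2 difference -1.53, adjusted p = 0.0139), and without replicate 2 of every cultured group (log2 difference -1.59, adjusted p = 0.000877). In actB *Atf3* was 10.7, 26.9, and 14.2 RPKM with GSK343 and lower than with DMSO in 3 of 3 same-numbered libraries (log2 difference -0.58, 95% interval -1.42 to 0.27, adjusted p = 0.410), and it was called without replicate 2 of every cultured group (log2 difference -0.73, adjusted p = 0.0303). *Bach1* was 15.4, 13.4, and 14.4 RPKM in Pb with GSK343, above all DMSO libraries. Its log2 difference of 0.25 (95% interval 0.07 to 0.43, adjusted p = 0.0654) was called with the block (adjusted p = 0.0379 or 0.0482, but 0.0571 over the cultured libraries alone), with quantile normalization (adjusted p = 0.0374), with a pseudocount of 1 (adjusted p = 0.0482), with all columns as deposited (adjusted p = 0.0449), and without replicate 2 of every cultured group (adjusted p = 0.00865). In actB *Bach1* was 3.47, 3.65, and 3.65 RPKM with GSK343 (log2 difference 0.21, 95% interval 0.03 to 0.38, adjusted p = 0.133), called without actB replicate 2 with DMSO (adjusted p = 0.0256) and without replicate 2 of every cultured group (adjusted p = 0.0244).

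Tested directly, the effect of GSK343 differed between Pb and actB for none of the 10 genes in limma or edgeR, against 0.248% of all genes, and 1 of the 10, *Jun*, had an unadjusted p under 0.05, against 9% of all genes. The difference of the effects on *Jun* was -0.35 on the log2 scale (95% interval -0.64 to -0.06, adjusted p = 0.419). Some markers of stage and of other cell types were also called with GSK343. Over all 11299 genes tested, 926 were called higher and 244 lower in actB, and 893 higher and 565 lower in Pb. In Pb, 4 of 8 naive B cell markers were called lower, with *Fcer2a* (CD23) at 1.66 against 5.13 RPKM, and *Sdc1*, which encodes CD138, was called higher at 55.3 against 29.7. In actB 1 of the 8 naive markers was called lower, and 2 of 7 myeloid markers were called higher, with the integrin gene *Itgam* at 9.95 against 4.27 RPKM. Their part in the values of the AP-1 genes was not tested. Of the 14 immediate early genes, 2 were called higher with GSK343 in Pb, among them *Ier5* at 32.2 against 24.6 RPKM.

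Other genes of the AP-1 network were taken from lists drawn up by function. Of 5 other AP-1 subunit genes 3 were tested, with *Atf7* lower in actB than in nB (8.08 against 14.6 RPKM) and *Atf2* higher in Pb than in actB (13.3 against 11.2 RPKM). *Fosl1* had no reads in nB or in actB with DMSO and a mean of 0.0291 RPKM in Pb with DMSO. Of 7 CREB and ATF genes 5 were called higher and 2 lower in Pb than in actB, with a median of 0.57 against -0.12 for all genes. *Atf5* rose from 3.03 RPKM in nB to 11.5 in actB (adjusted p = 9.06e-05) and 30.2 in Pb (adjusted p = 0.000475). *Creb1* fell from 22.6 RPKM in actB to 8.64 in Pb (adjusted p = 3.07e-10) and was called lower with GSK343 in both cell types (20.0 RPKM in actB and 7.58 in Pb). Of 9 MAF and CNC genes 7 were called lower in actB than in nB, and *Mafg*, which encodes a small MAF partner of BACH1, rose from 8.62 to 13.9 RPKM. All 9 had a mean of at least 1 RPKM in nB and 6 did in actB with DMSO. Those that entered the test through nB alone had to be lower in actB.

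Of 13 MAP kinases and kinases above them, 3 were called higher and 7 lower in actB than in nB, and 4 higher and 8 lower in Pb than in actB, with medians of -0.18 against 0.05 and -0.29 against -0.12 for all genes. *Map2k6*, a kinase of the p38 pathway, fell from 8.11 RPKM in nB to 2.20 in actB and 0.721 in Pb. With GSK343, 3 of the 13 were called higher in actB, against 926 of all 11299 genes tested. The JNK gene *Mapk8* was among the 3, at 4.33 against 3.30 RPKM (adjusted p = 0.0381). In Pb 1 of the 13 was called higher, against 893 of all genes. It was the ERK gene *Mapk3* at 13.1 against 11.5 RPKM (adjusted p = 0.0427). Of 4 SRF and TCF genes, whose products bind the serum response element of immediate early genes, 2 were called lower in actB than in nB and 3 lower in Pb than in actB. *Elk3* fell from 18.6 RPKM in nB to 12.1 in actB and 6.04 in Pb with DMSO, and was called higher with GSK343 in actB (14.8 RPKM, adjusted p = 0.0254) and in Pb (7.79 RPKM, adjusted p = 0.00749). Of the 8 BACH1 targets 2 were called higher with GSK343 in Pb, among them *Ftl1* at 1472 against 1111 RPKM.

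The genes with the pattern most like each member were found by Pearson's r of log2(RPKM + 0.25) over the 14 libraries, which describes likeness across 5 groups whose means differ. *Batf* was followed by *Adap1* (r = 0.993), which was 15.7 RPKM in nB, 59.7 in actB, and 30.6 in Pb with DMSO. For *Bach1* these were *Fam117a* (r = 0.997) and *Mon2* (r = 0.996), and for *Atf3* *Hsh2d* (r = 0.990) and *Tor3a* (r = 0.986). *Hsh2d* was 37.3 RPKM in nB, 36.1 in actB, and in Pb 12.2 with DMSO and 8.30 with GSK343. *Fos* was followed by *Nrbp1* (r = 0.996) and *Myl12b* (r = 0.994), and *Fosb* by the T cell marker *Cd4* (r = 0.997) and *Ccnd1* (r = 0.996), whose means outside nB were at most 0.302 RPKM. *Jun* was followed by *Adrbk2* (r = 0.988) and *Foxj2* (r = 0.987), *Junb* by *Cd79a* (r = 0.991) and *Treml2* (r = 0.989), and *Jund* by *Zfp628* (r = 0.990) and *Zfp319* (r = 0.983). *Batf3* was followed by *Wdr78* (r = 0.971) and *Invs* (r = 0.963), and *Fosl2*, with the weakest likeness, by *Oaz2* (r = 0.908) and *Mbd5* (r = 0.900).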

How the data were processed

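RNA-seq libraries were prepared with a stranded poly(A) kit. The authors mapped paired-end reads to mm9 with TopHat2 and counted those overlapping exons of Entrez genes with GenomicRanges. Strand use in counting is not given in the sources used here. The authors deposited RPM values (reads per 1000000 reads), despite a file name that gives RPKM. All columns have the same total. Dividing by the value of 1 read gave whole reads for 100% of the values (tolerance 0.05 reads). Dividing RPM by the deposited gene length in kilobases gave RPKM. Genes with no symbol (92, at most 0.0905% of reads) were left out. The floors cover counting error only, whereas the intervals from limma rest on the spread between these libraries.

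Genes with at least 1 RPKM in at least 3 of 15 columns were fitted on log2(RPKM + 0.25) with limma 3.58.1 in R 4.3.3 (14 libraries, 5 groups, 9 residual degrees of freedom, trended eBayes) and Benjamini-Hochberg adjustment. Deviations from group means correlated between same-numbered libraries of different cultured groups (r from 0.158 to 0.713 in 6 pairs for each number). Between different numbers r ran from -0.603 to 0.370 in 36 pairs. Number 2 (r from 0.435 to 0.713) lay wholly above this range. Numbers 1 (r from 0.158 to 0.502) and 3 (r from 0.219 to 0.356) overlapped it, so the correlations alone do not settle whether the numbers pair the samples. The study's methods state no block, so it is an alternative. Other alternatives were edgeR 4.0.16 with TMM or RLE factors on recovered reads (at least 3 RPM), other pseudocounts, filters, scalings, and sets of libraries.

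The 10 genes and all lists were chosen with earlier results of these data known. Outside the 10 genes, those named are in each list and comparison the called gene with the largest rise and fall, with at least 2 RPKM in a group and no overlap, and the 2 tested genes most like each member. *Xcr1*, *Hspa1a*, *Hspa1b*, *Fosl1*, *S100a8*, and *S100a9* were added after their values were seen. Some genes that this rule picks are not reported here. Promoters are from RefSeq (GRCm38.p6) and were placed on mm9 by exact match, and gene positions are from GENCODE vM1.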

Additional observations from a re-analysis of the deposited data

Results flagged for a closer look

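*Jun* was listed because its same-numbered libraries moved in opposite directions with GSK343 in actB and Pb, and the test of the difference did not pass the threshold. It was higher with GSK343 in 3 of 3 same-numbered actB libraries and lower in 3 of 3 same-numbered Pb libraries. How many of all genes moved in this way was not counted. The difference of the effects, Pb minus actB, was -0.35 on the log2 scale. The test of this difference gave an adjusted p of 0.419 in limma, and 0.0463 under the replicate block, where the merged nB library had number 1, 0.111 where it had number 2, and 0.0777 over the cultured libraries alone. Without replicate 2 of every cultured group it was 0.0225, and over all alternatives it ranged from 0.0225 to 0.683. The labels name Il6 for the Pb libraries with GSK343 and Il5 for the others, whereas the study's methods name IL5 for the LPS cultures. If the labels hold, this difference cannot be told apart from the cell type here. Groups of 2 or 3 libraries were not searched for single outlying values.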

How the results depend on the processing

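Of 740 values of the 10 genes under alternatives other than leaving out 1 library, 686 kept their direction and side of the threshold, and of 292 with 1 library left out 270 did. The replicate block (merged nB library as 1 or 2) called 2 and 2 members with GSK343 in actB, 4 and 4 in Pb, and 1 and 0 for the difference of the effects, in place of 0 each, and 2417 and 1934, 2780 and 2319, and 222 and 61 of all genes. Over the cultured libraries alone, added after the data were seen, it called 2, 3, and 0 members and 2368, 2740, and 83 genes. It changed no other call than those given in the report. Without replicate 2 of the cultured groups 3, 4, and 1 members were called, and 1740, 1977, and 146 of all genes. In Pb, 1 member was called with a pseudocount of 1, with quantile normalization, with the compared groups alone, and with all columns as deposited. The compared groups alone gave 386 genes in actB and 4 for the difference, quantile normalization 18, and all columns 48. With 1 library left out, 0 to 3 members were called in actB and 0 to 1 in Pb, and 608 to 1363, 690 to 1304, and 0 to 58 of all genes. Median scaling lowered the share of higher calls with GSK343 in actB from 79.1% to 65.1% (61.6% with quantile normalization), and raised it in Pb against actB from 39.2% to 49.4%. Differences near 0 changed sign. For actB against nB, *Atf3* was -0.0432 with median scaling, -0.0486 with quantile normalization, -0.22 with the block (merged nB as 1), -0.0075 with all columns, -0.18 without replicate 2, and -0.0244 in edgeR with RLE factors, and -0.18 to 0.17 with 1 library left out. *Batf3* was 0.12 with the block (merged nB as 2) and -0.22 to 0.11 with 1 library left out. For GSK343 in actB, *Batf* was -0.0284 with median scaling, -0.0080 without replicate 2, -0.0282 in edgeR with TMM and -0.0310 with RLE factors, and -0.0877 to 0.0877 with 1 library left out, and *Jund* was -0.0488 to 0.18. In Pb, *Batf* was -0.0520 without replicate 2 and -0.0354 to 0.24 with 1 library left out, and *Jund* was -0.0320 to 0.20. The causes were not tested. Where leaving out a library left 1 for nB, it was assumed to vary like the other groups. With 6 to 8 reads of *Fosb* per library in actB with DMSO, its folds depend on counting error.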
